A study of Mus musculus with 4 samples.

Results

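Glucocorticoid-responsive genes were followed across the stromal cell types of the mouse submandibular salivary gland. They comprise 6 genes, Tsc22d3, Dusp1, Ddit4, Fkbp5, Zbtb16 and Nr3c1, found by symbol among the 31053 genes of the count matrices, and all 6 were present. The 6 were chosen by what is known of them and with earlier results of these same libraries known, among them higher levels of Tsc22d3, Dusp1 and Ddit4 after deligation, so they were selected on that contrast. Their difference between the groups is therefore described with its size and spread, without a p-value. Calls of the members by edgeR are counted beside those of all genes, and nothing is read from them. The study holds 4 droplet single-cell libraries from female C57BL6/J mice. In 2 deligated libraries, from mice of 14 weeks, a metal clip had closed the main ducts for 14 days and had been off for 5 days. In 2 homeostatic libraries the mice were 12 weeks old and had no surgery. Surgery and age thus changed together, and all 4 suspensions had gone through bead depletion of EpCAM-positive and Ter119-positive cells and dead cell removal. The protocol names sublingual as well as submandibular glands and speaks of 2 glands without saying how many animals stand behind a library, so p-values below measure the spread between libraries, which may be technical.

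Glucocorticoids are adrenal steroids that enter cells freely and bind the glucocorticoid receptor, encoded by Nr3c1, which then moves to the nucleus and raises or lowers the transcription of target genes. Fkbp5 encodes a co-chaperone that is itself induced by the receptor and lowers its hormone affinity, closing a feedback loop. Tsc22d3 (the leucine zipper protein GILZ) and Dusp1 (a phosphatase that switches off MAP kinases) are classic induced genes with anti-inflammatory roles, and both also answer other stimuli. Ddit4 (REDD1) restrains mTORC1 and is induced by hypoxia, energy stress and glucocorticoids, and Zbtb16 (PLZF) is a zinc finger transcription factor that glucocorticoids induce in stromal cells and that also marks innate-like lymphocytes. No hormone level was measured in these data, and the name of the set states what is known of the genes, since they did not move in 1 direction here.

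On GRCm38 all 6 genes lie on the minus strand, and intron length is given because it matters for the comparison below. Tsc22d3 (ENSMUSG00000031431) spans 140539528 to 140600659 of chromosome X with 56.8 kb of intron, Dusp1 (ENSMUSG00000024190) 26505590 to 26562128 of chromosome 17 and Ddit4 (ENSMUSG00000020108) 59949669 to 59951834 of chromosome 10 with 0.411 kb of intron. Fkbp5 (ENSMUSG00000024222) spans 28399094 to 28517527 of chromosome 17 with 109 kb of intron, Zbtb16 (ENSMUSG00000066687) 48654297 to 48836222 of chromosome 9 with 177 kb, and Nr3c1 (ENSMUSG00000024431) has 101 kb of intron. The 53.2 kb of intron annotated for Dusp1 come from a long GENCODE model, whereas RefSeq gives the gene a span of 2.88 kb. The Dusp1 model overlaps Ergic1 and Gm8225 on the other strand, and if counting ignored strand the Dusp1 count is uncertain. No other member overlaps an annotated gene.

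The 250 bases before the start sites of the members that were higher after deligation are shown beside those of Fkbp5, which was not, because these windows are where induced factors and the receptor can act. The promoter sequences used here held no window for Zbtb16 and Nr3c1. They are RefSeq sequences on GRCm38.p6, written in the direction of transcription, with matches to the searched motifs in capitals. For Tsc22d3 the window of the farthest upstream of its 3 listed start sites is given. The windows of its other 2 start sites, at 140542669-140542918 and 140548572-140548821, lie far downstream. Counts were made per gene, so which start site the cells used was not measured.
Tsc22d3, chrX:140600523-140600772, minus strand: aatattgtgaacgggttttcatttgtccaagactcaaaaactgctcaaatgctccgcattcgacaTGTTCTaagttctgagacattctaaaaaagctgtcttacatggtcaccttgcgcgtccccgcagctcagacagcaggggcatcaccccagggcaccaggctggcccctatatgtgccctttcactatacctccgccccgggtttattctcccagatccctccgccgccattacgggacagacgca
Dusp1, chr17:26508473-26508722, minus strand: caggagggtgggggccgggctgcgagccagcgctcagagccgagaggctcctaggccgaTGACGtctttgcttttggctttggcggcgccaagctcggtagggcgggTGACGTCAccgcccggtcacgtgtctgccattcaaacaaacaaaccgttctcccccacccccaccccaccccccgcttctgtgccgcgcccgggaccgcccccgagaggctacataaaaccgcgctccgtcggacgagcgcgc
Ddit4, chr10:59951771-59952020, minus strand: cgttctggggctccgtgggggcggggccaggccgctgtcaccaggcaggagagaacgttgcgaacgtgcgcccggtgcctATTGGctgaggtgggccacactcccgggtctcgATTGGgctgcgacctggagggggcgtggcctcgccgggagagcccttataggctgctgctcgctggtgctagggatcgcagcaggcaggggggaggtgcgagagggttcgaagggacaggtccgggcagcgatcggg
Fkbp5, chr17:28486150-28486399, minus strand: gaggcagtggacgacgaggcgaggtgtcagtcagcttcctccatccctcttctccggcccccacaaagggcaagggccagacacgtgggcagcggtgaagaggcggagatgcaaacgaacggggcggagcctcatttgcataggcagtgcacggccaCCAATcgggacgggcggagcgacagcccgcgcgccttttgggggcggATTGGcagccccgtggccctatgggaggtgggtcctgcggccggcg
Searched on both strands were the cAMP response element TGACGTCA and its arm TGACG (which lies within it), the glucocorticoid receptor arm AGAACA and the palindrome of 2 such arms facing each other with 3 bases between, the TATA box TATAAA and the CCAAT box CCAAT. Dusp1 carried TGACGTCA at positions -143 to -136 and a separate TGACG at -191 to -187, counted from the start site. The printed Tsc22d3 window carried AGAACA on the reverse strand at -185 to -180, while of its other 2 start sites 1 had a TGACG at -224 to -220 and 1 had none of the motifs, and the windows of Fkbp5 and Ddit4 carried 2 CCAAT boxes each. Of 32851 promoter windows of this length, 1.55% held TGACGTCA, 17.8% TGACG, 16.1% AGAACA, 0.00913% the full palindrome, 12.4% TATAAA and 33.8% CCAAT. A match is a description of the letters and not of a bound site.

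The libraries held 4725 and 8713 deligated and 12854 and 13266 homeostatic cell barcodes, with 35662241 to 53898793 UMIs each and medians of 6075 and 5278 against 2912.5 and 2765.5 UMIs per barcode. Any pair of libraries shared 14 to 54 barcodes. After filters 4357 and 7823 deligated and 10615 and 10900 homeostatic cells remained. Clustering without the members gave 5 named classes with at least 100 cells in every library, and each had UMIs of all its own marker genes in all 4 libraries (10 markers each, 9 for fibroblast). They are endothelial-like (1906 and 3134 deligated, 3464 and 3462 homeostatic cells), NK/innate lymphoid-like (911, 2113, 1121 and 1121), T cell-like (645, 934, 184 and 191), fibroblast-like (360, 734, 291 and 277) and mural-like cells (319, 445, 116 and 104), the last being the pericytes and smooth muscle around vessels. The clusters of these 5 classes held at most 17 cells of the smaller group, so each class joins different clusters in the groups. B cell-like, Schwann-like and erythroid-like cells were each 1 cluster with cells of both groups. Epithelial-like cells were 1.03% and 1.57% of deligated and 10.5% and 11.4% of homeostatic cells despite the depletion. These shares cover named clusters alone. A further 0.230% and 0.665% of deligated and 31.2% and 32.0% of homeostatic cells lay in unnamed clusters, and 2561 of 3314 and 2696 of 3492 such homeostatic cells were in clusters nearest to the epithelial class.

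The file headers name Cell Ranger 6.0.1 for the deligated and 7.0.0 for the homeostatic libraries, and version and group cannot be told apart. Genes with long introns were lower in the deligated libraries in all 5 classes. Genes with over 100 kb of intron had a median log2 fold change (deligated over homeostatic) of -0.83 in endothelial-like, -1.07 in fibroblast-like, -0.74 in mural-like, -1.37 in NK/innate lymphoid-like and -1.34 in T cell-like cells. Genes with at most 2 kb had medians of 0.23, 0.32, 0.19, 0.32 and 0.36 in the same order. For each member the fitted log2 fold change is therefore followed by the value with the smooth trend over intron length removed.

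Levels are given below as CPM, UMIs per 1000000 UMIs of the class in a library, in the order deligated 1, deligated 2, homeostatic 1 and homeostatic 2.

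Tsc22d3 was higher after deligation in 4 of the 5 classes, with the widest gap in NK/innate lymphoid-like cells. There it stood at 90.1, 102, 24.3 and 21.7 CPM. Both deligated libraries lay far above both homeostatic ones, and the log2 fold change was 2.17 (SE 0.10, n = 2 against 2) and 2.61 with the trend removed. Endothelial-like cells had the higher Tsc22d3 level, and the summed CPM of the 10 endothelial markers in NK/innate lymphoid-like cells was 151 and 267 in deligated and 345 and 157 in homeostatic libraries, with 1 marker higher and 1 lower without overlap and none at 0. Some other marker sums there were higher after deligation: 254 and 274 against 168 and 157 CPM for 8 B cell markers (2 higher, 1 lower), 55.1 and 86.3 against 21.04 and 19.05 for 10 mural markers (9 higher) and 41.9 and 117 against 36.5 and 8.05 for 9 fibroblast markers (6 higher, 1 lower), with none at 0. Others were lower. The 10 T cell markers summed to 434 and 498 against 650 and 596 (7 lower, 1 higher). The 10 macrophage markers summed to 12.3 and 24.0 against 76.2 and 27.4 (7 lower), again with none at 0. The part of RNA from other cells in the Tsc22d3 values was not tested. In T cell-like cells the levels were 115, 128, 67.5 and 44.6, again without overlap, with a log2 fold change of 1.25 (SE 0.20) and 1.68 with the trend removed. The mural markers in these cells summed to 64.5 and 109 against 14.1 and 10.1 (10 of 10 higher, none at 0) and the fibroblast markers to 60.3 and 143 against 37.3 and 36.5 (7 of 9 higher, 1 lower, none at 0).

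In vessel and connective tissue cells the Tsc22d3 gap was narrower. Endothelial-like cells had 197, 264, 159 and 150 CPM, a log2 fold change of 0.59 (SE 0.12). Fibroblast-like cells had 101, 131, 85.9 and 77.0, a log2 fold change of 0.57 (SE 0.15). The groups did not overlap in either class, and trend removal gave 0.79 and 0.89. Mural-like cells had 55.3, 102, 75.1 and 78.1, where the homeostatic libraries lay between the deligated ones and the log2 fold change was 0.03 (SE 0.27), which became -0.42 without the second deligated library and 0.38 without the first.

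Dusp1 was the only member whose deligated libraries lay above both homeostatic libraries in every tested class together with a log2 fold change over 1 in each. NK/innate lymphoid-like cells had 141, 165, 37.1 and 33.5 CPM, a log2 fold change of 2.22 (SE 0.10). The T cell-like level was 288, 382, 117 and 135, a log2 fold change of 1.54 (SE 0.17). Fibroblast-like cells had 83.0, 92.4, 29.5 and 30.4, a log2 fold change of 1.61 (SE 0.15). In these 3 classes the libraries of a group lay close together next to the gap between groups.

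Endothelial-like cells had 316, 581, 200 and 190 CPM of Dusp1, a log2 fold change of 1.21 (SE 0.24). Mural-like cells had 139, 259, 75.1 and 91.1, a log2 fold change of 1.24 (SE 0.27). In both the second deligated library was 1.84 and 1.87 times as high as the other, and without it both log2 fold changes were 0.78. The 10 NK markers summed to 28.6, 125, 14.7 and 7.51 CPM in endothelial-like cells. In mural-like cells 6 erythroid markers summed to 34.1, 2904, 138 and 73.2, and 9 fibroblast markers to 1014, 960, 460 and 412. The part of RNA from other cells in these Dusp1 values was not tested. Trend removal raised Dusp1 in all 5 classes, to between 1.38 and 2.63, a step that uses the long GENCODE intron which RefSeq does not draw. Genes with at most 2 kb of intron had medians above 0 in all 5 classes, and removal with the RefSeq span of Dusp1 was not run. Macrophage-like cells, with 36 and 94 deligated cells too few for a fit, had 305 and 344 deligated against 76.9 and 76.6 homeostatic CPM. The homeostatic level joins a cluster led by Wfdc17 and Aif1 at 5.03 and 1.27 CPM and one led by Nlrp1b and Fat3 at 100.7 and 105, while nearly all deligated cells lay in a cluster of their own, and the part of this in the difference was not tested.

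**Figure D1:**
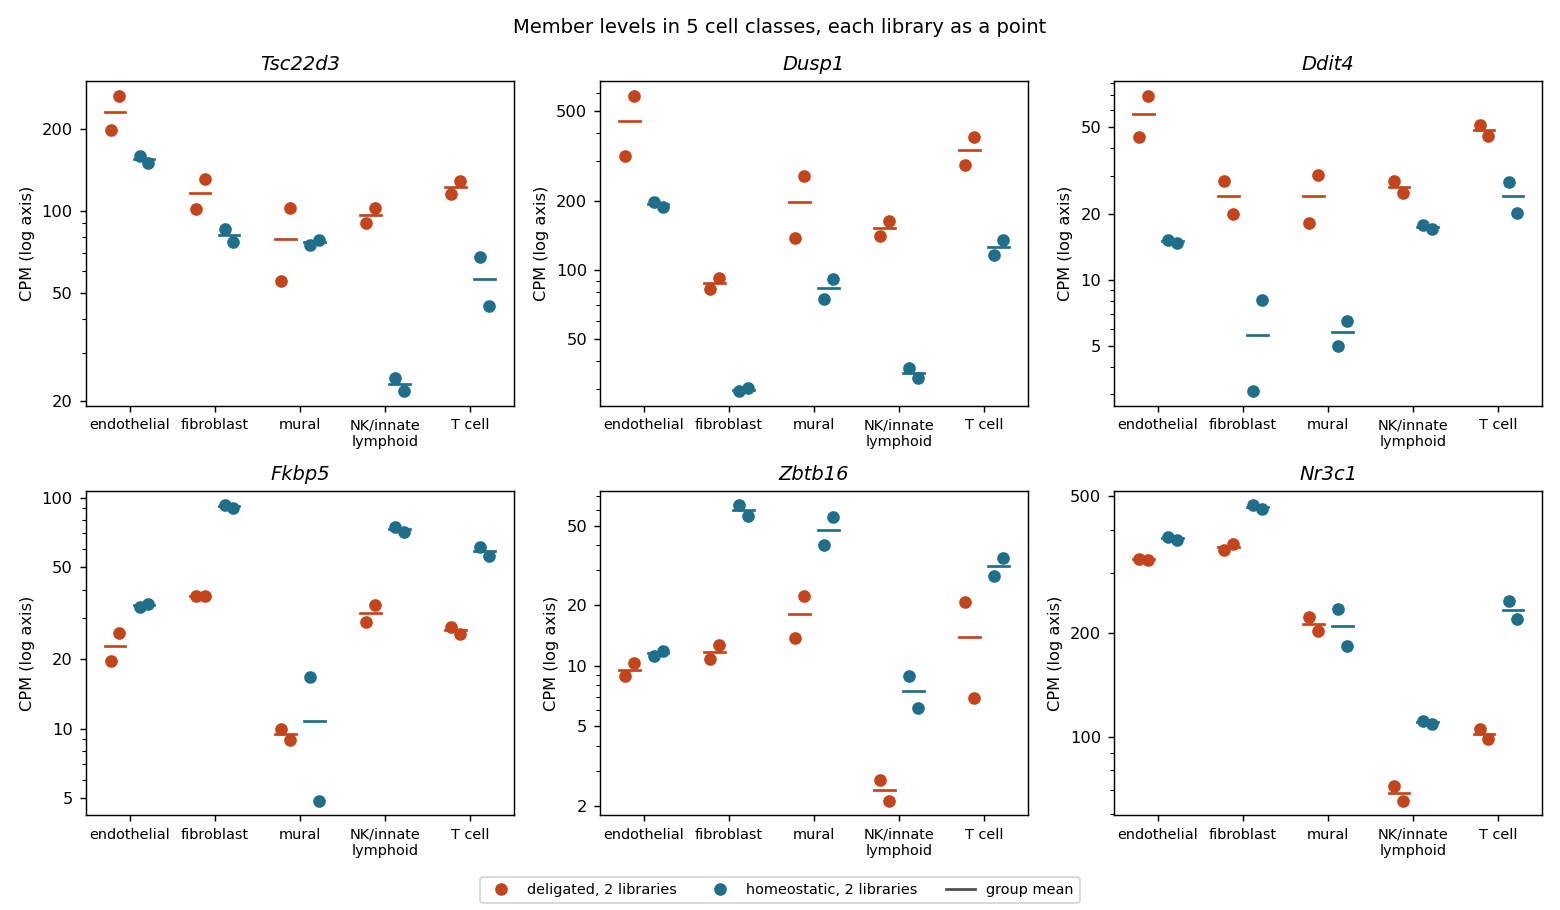
CPM of each member (log axis) in 5 cell classes, with 1 point per library and a line at the mean of each group. Dusp1 and Ddit4 are higher in both deligated libraries in every class, and Fkbp5, Zbtb16 and Nr3c1 are lower or overlap.

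Ddit4 was also higher in all 5 classes, with its largest ratios in the non-immune cells. Endothelial-like cells had 44.9, 69.6, 15.3 and 14.8 CPM, a log2 fold change of 1.94 (SE 0.19). Fibroblast-like cells had 28.4, 20.1, 3.105 and 8.13, a log2 fold change of 2.17 (SE 0.39), where the homeostatic levels rest on 6 and 15 UMIs. Mural-like cells had 18.2, 30.1, 5.00 and 6.51, a log2 fold change of 2.04 (SE 0.49), with only 3 and 4 homeostatic UMIs. No library of 1 group reached those of the other in these classes.

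The Ddit4 gap was smaller in lymphoid cells. T cell-like cells had 51.5, 45.6, 28.2 and 20.3 CPM (log2 fold change 1.12, SE 0.23) and NK/innate lymphoid-like cells 28.3, 25.1, 17.8 and 17.1 (0.71, SE 0.14). The groups stayed apart in both. With almost no intron, Ddit4 belongs to the genes that the trend raises in deligated libraries, and its removal lowered the values to 1.72, 1.82, 1.85, 0.72 and 0.35 in endothelial-like, fibroblast-like, mural-like, T cell-like and NK/innate lymphoid-like cells.

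Fkbp5, the receptor's feedback co-chaperone and a widely used marker of glucocorticoid action, was lower in deligated cells. Fibroblast-like cells had 37.3, 37.5, 92.6 and 90.5 CPM, a log2 fold change of -1.23 (SE 0.14) that became -0.56 with the trend removed. NK/innate lymphoid-like cells had 29.0, 34.5, 74.8 and 70.9 and T cell-like cells 27.7, 25.6, 61.4 and 55.8, with log2 fold changes of -1.08 (SE 0.10) and -1.01 (SE 0.19). In these 3 classes the homeostatic libraries lay well above the deligated ones.

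Trend removal brought Fkbp5 to -0.20 in NK/innate lymphoid-like and -0.14 in T cell-like cells. Endothelial-like cells had 19.7, 26.0, 33.7 and 34.6 CPM, with -0.57 (SE 0.12) as fitted and -0.09 with the trend removed. Mural-like cells had 9.94, 8.94, 16.7 and 4.88, so the groups overlapped, with -0.19 as fitted, 0.90 without the first homeostatic library and -0.80 without the second.

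Zbtb16 was lower in all 5 classes, by most in fibroblast-like cells. Fibroblast-like cells had 10.8, 12.7, 63.1 and 55.8 CPM, a log2 fold change of -2.27 (SE 0.18) and -1.27 with the trend removed. Mural-like cells had 13.8, 22.4, 40.0 and 55.3, a log2 fold change of -1.40 (SE 0.31) and -0.70 with the trend removed. Both classes had all homeostatic libraries above all deligated ones. In fibroblast-like cells the median of genes with over 100 kb of intron, the bin of Zbtb16, was -1.07.

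In the other classes the Zbtb16 gap shrank or turned with the trend removed. NK/innate lymphoid-like cells had 2.70, 2.13, 8.91 and 6.14 CPM (-1.57, SE 0.32; -0.33 with the trend removed) and endothelial-like cells 8.86, 10.3, 11.2 and 11.8 (-0.25, SE 0.13; 0.49 with the trend removed). T cell-like cells had 20.8, 6.94, 28.2 and 34.5, a log2 fold change of -1.09 (SE 0.49) that was -2.04 without the first deligated library and -0.44 without the second. The first deligated library lay between the second and the homeostatic ones, and the value with the trend removed was 0.16.

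Nr3c1, the receptor itself, lies at 39410545 to 39519421 of chromosome 18 and differed least outside the lymphoid cells. Endothelial-like cells had 329, 327, 380 and 373 CPM (log2 fold change -0.18, SE 0.09; -0.12 without the second deligated library), fibroblast-like cells 348, 362, 470 and 459 (-0.33, SE 0.12) and mural-like cells 223, 202, 235 and 184 (0.02, SE 0.17; -0.12 to 0.17 when each library was left out). Only the mural-like groups overlapped. T cell-like cells had 106, 98.9, 249 and 220 (-1.07, SE 0.14) and NK/innate lymphoid-like cells 72.1, 65.4, 111 and 109 (-0.58, SE 0.10), both with the homeostatic libraries higher. With the trend removed the values were 0.26, 0.30, 0.43, -0.25 and 0.24 in the order given, so the sign turned in endothelial-like, fibroblast-like and NK/innate lymphoid-like cells.

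**Figure D2:**
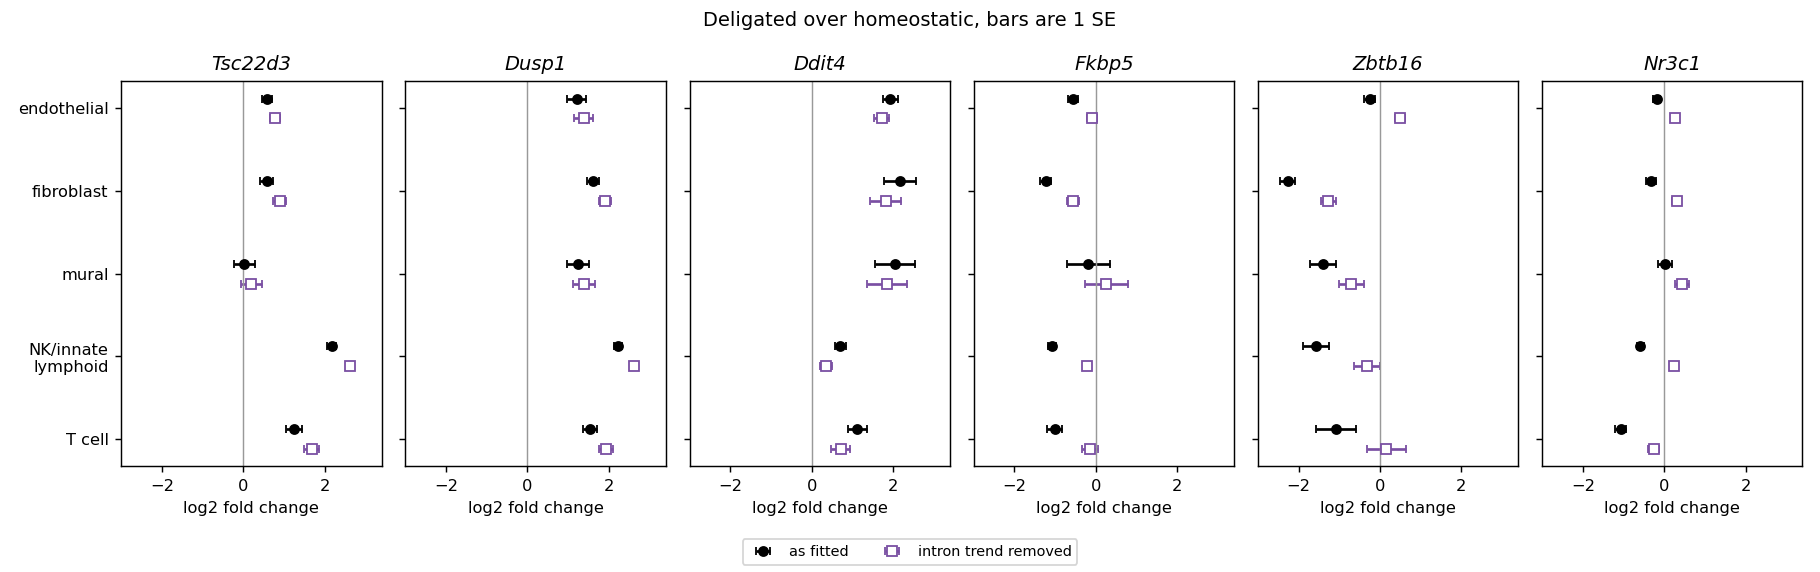
Log2 fold change of each member, deligated over homeostatic, in 5 classes, as fitted (black circles) and with the intron-length trend removed (open purple squares), with bars of 1 SE. Tsc22d3 and Dusp1 move right and Ddit4 moves left when the trend is removed, and Nr3c1 ends at or above 0 outside T cell-like cells. The Dusp1 shift uses the 53.2 kb of intron of its GENCODE model, whereas its RefSeq span is 2.88 kb.

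**Figure D3:**
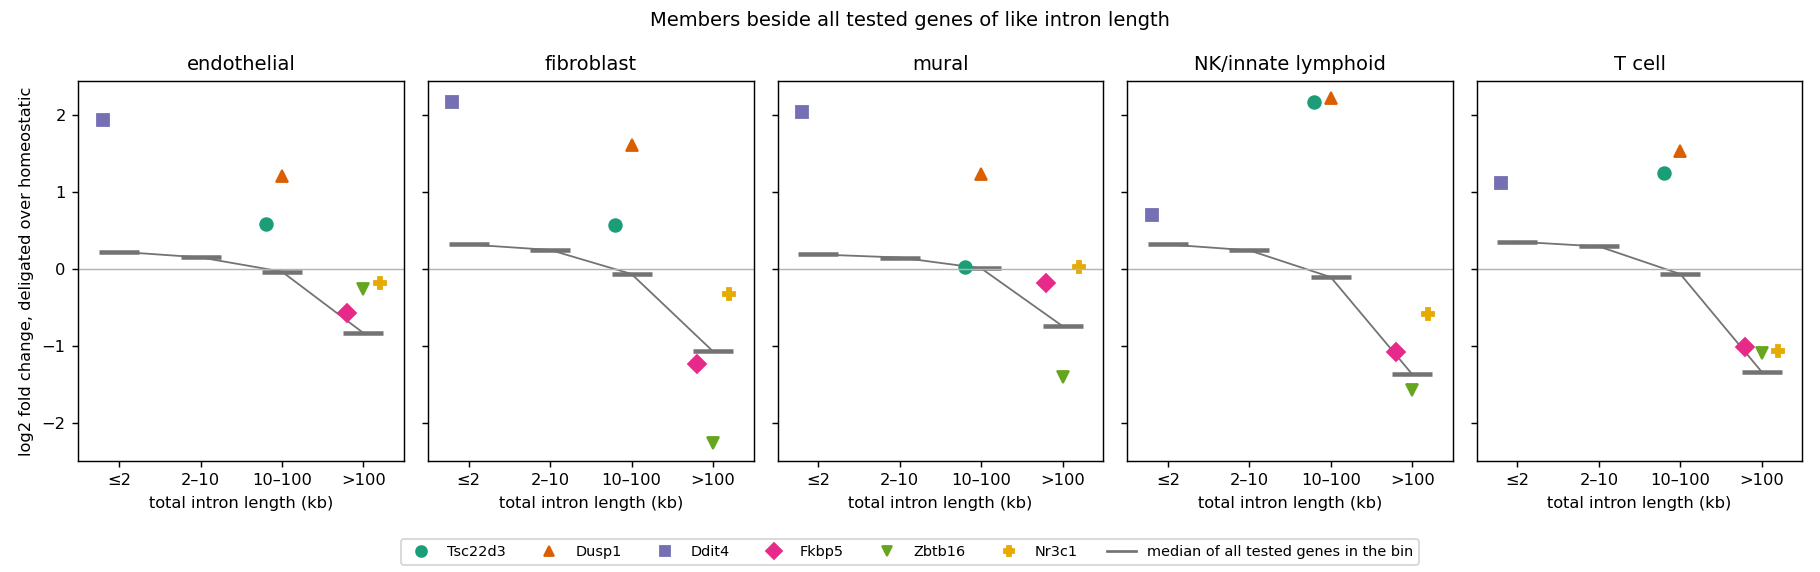
Log2 fold change of each member (coloured symbols) beside the median of all tested genes (grey) in 4 bins of total intron length in kb, for 5 classes. In T cell-like cells Fkbp5, Zbtb16 and Nr3c1 lie above the median of -1.34 for genes with over 100 kb, whereas in fibroblast-like cells Zbtb16 lies at -2.27 below a median of -1.07. Dusp1 is placed by the 53.2 kb of intron of its GENCODE model, whereas its RefSeq span is 2.88 kb.

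By the count of edgeR calls (quasi-likelihood test, Benjamini-Hochberg adjusted p below 0.05 over all genes of the class), 3 members were called higher and 3 lower in NK/innate lymphoid-like cells, where 15.6% of 11942 genes were called higher and 26.4% lower. In T cell-like cells 3 were higher and 2 lower, against 7.5% and 16.4% of 9974 genes. In endothelial-like cells 3 were higher and 1 lower, against 13.0% and 22.4% of 13275 genes, and in fibroblast-like cells 3 and 2, against 8.99% and 18.5% of 11608 genes. In mural-like cells 2 were higher and 1 lower, against 1.39% and 6.66% of 9805 genes. In either direction 42.0%, 23.9%, 35.3%, 27.5% and 8.05% of genes were called in NK/innate lymphoid-like, T cell-like, endothelial-like, fibroblast-like and mural-like cells. Because the choice of members used this contrast, nothing is read from these counts. With the trend removed the calls higher and lower were 2 and 0 in NK/innate lymphoid-like (background 12.5% and 16.5%), 2 and 0 in T cell-like (5.36% and 7.21%), 4 and 0 in endothelial-like (11.9% and 17.3%), 3 and 2 in fibroblast-like (8.11% and 9.42%) and 1 and 0 in mural-like cells (1.27% and 2.62%). In either direction the trend-removed background was 29.0%, 12.6%, 29.3%, 17.5% and 3.9%. Libraries of the groups did not overlap for 3 members higher and 3 lower in each class but mural-like cells, where it was 2 and 1. Among all tested genes 26.6% were higher and 43.9% lower without overlap in NK/innate lymphoid-like, 23.8% and 38.0% in T cell-like, 31.6% and 37.6% in endothelial-like, 26.7% and 37.6% in fibroblast-like and 25.4% and 25.9% in mural-like cells. The median log2 fold change over the 6 members with the trend removed was 0.30, 0.44, 0.64, 0.60 and 0.35 in the same order of classes, beside medians of all tested genes between -0.0006 and 0.01. These medians include Dusp1 with its long GENCODE intron. Nothing is read from them either, since the members were chosen on this contrast.

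Depth differed between the groups, so each cell was also thinned to 1000 UMIs. In NK/innate lymphoid-like cells 9.88% (95% exact interval 8.02 to 12.0) and 11.3% (10.0 to 12.7) of deligated against 3.04% (2.12 to 4.22) and 2.504% (1.67 to 3.60) of homeostatic cells had a Tsc22d3 UMI. Without thinning the shares were 38.5% and 39.9% against 14.3% and 13.6%. Thinning left out 0 and 1 deligated and 3 and 3 homeostatic cells of this class. No class is known to lack the gene, so epithelial-like cells, which the bead depletion was meant to remove, serve as the reference. Their thinned shares were 7.14% (0.877 to 23.5) and 5.45% (1.14 to 15.1) in deligated and 2.05% (1.13 to 3.42) and 2.80% (1.76 to 4.20) in homeostatic libraries, with median depths of 1425, 943, 1195 and 1240 UMIs against 5985, 5547, 6288 and 6293 in NK/innate lymphoid-like cells. The NK/innate lymphoid-like intervals overlapped those of the reference within each group, so detection above background was not shown at this depth. Intervals cover counting error only.

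Dusp1 was found in 19.4% and 33.5% of thinned deligated and 15.3% and 14.7% of homeostatic endothelial-like cells, against 3.57% and 1.82% of deligated and 0.733% and 0.381% of homeostatic epithelial-like cells. These endothelial-like shares lay above the reference intervals in the homeostatic libraries (at most 1.70%) and in the second deligated library (at most 9.72%). In the first deligated library the intervals overlapped, at 17.6% to 21.2% against at most 18.3%. Without thinning the endothelial-like shares were 55.1%, 67.3%, 39.1% and 39.1%. Endothelial-like cells left out as too shallow numbered 36, 47, 57 and 45, and epithelial-like ones 17, 68, 429 and 454. Fkbp5 was found in 3.06% and 4.18% of deligated and 10.7% and 7.75% of homeostatic fibroblast-like cells, and unthinned in 36.4%, 27.8%, 40.2% and 35.4%. Epithelial-like cells had Fkbp5 in 9.09% of deligated 2 and 5.43% and 4.57% of homeostatic cells and in 0 of 28 of deligated 1, which allows up to 10.7% at this depth (3 counts of the total). Ddit4 had a UMI in 0 of 290 thinned homeostatic 1 fibroblast-like cells, which by the same rule allows a share of up to 1.03% at this depth, and in 0.369% of homeostatic 2, against 2.22% and 2.09% of deligated cells and 0.733% and 1.40% of homeostatic epithelial-like cells. Unthinned, the homeostatic 1 fibroblast-like cells held 6 Ddit4 UMIs. These limits concern a UMI after thinning and do not bound the share of cells with the transcript.

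**Figure D4:**
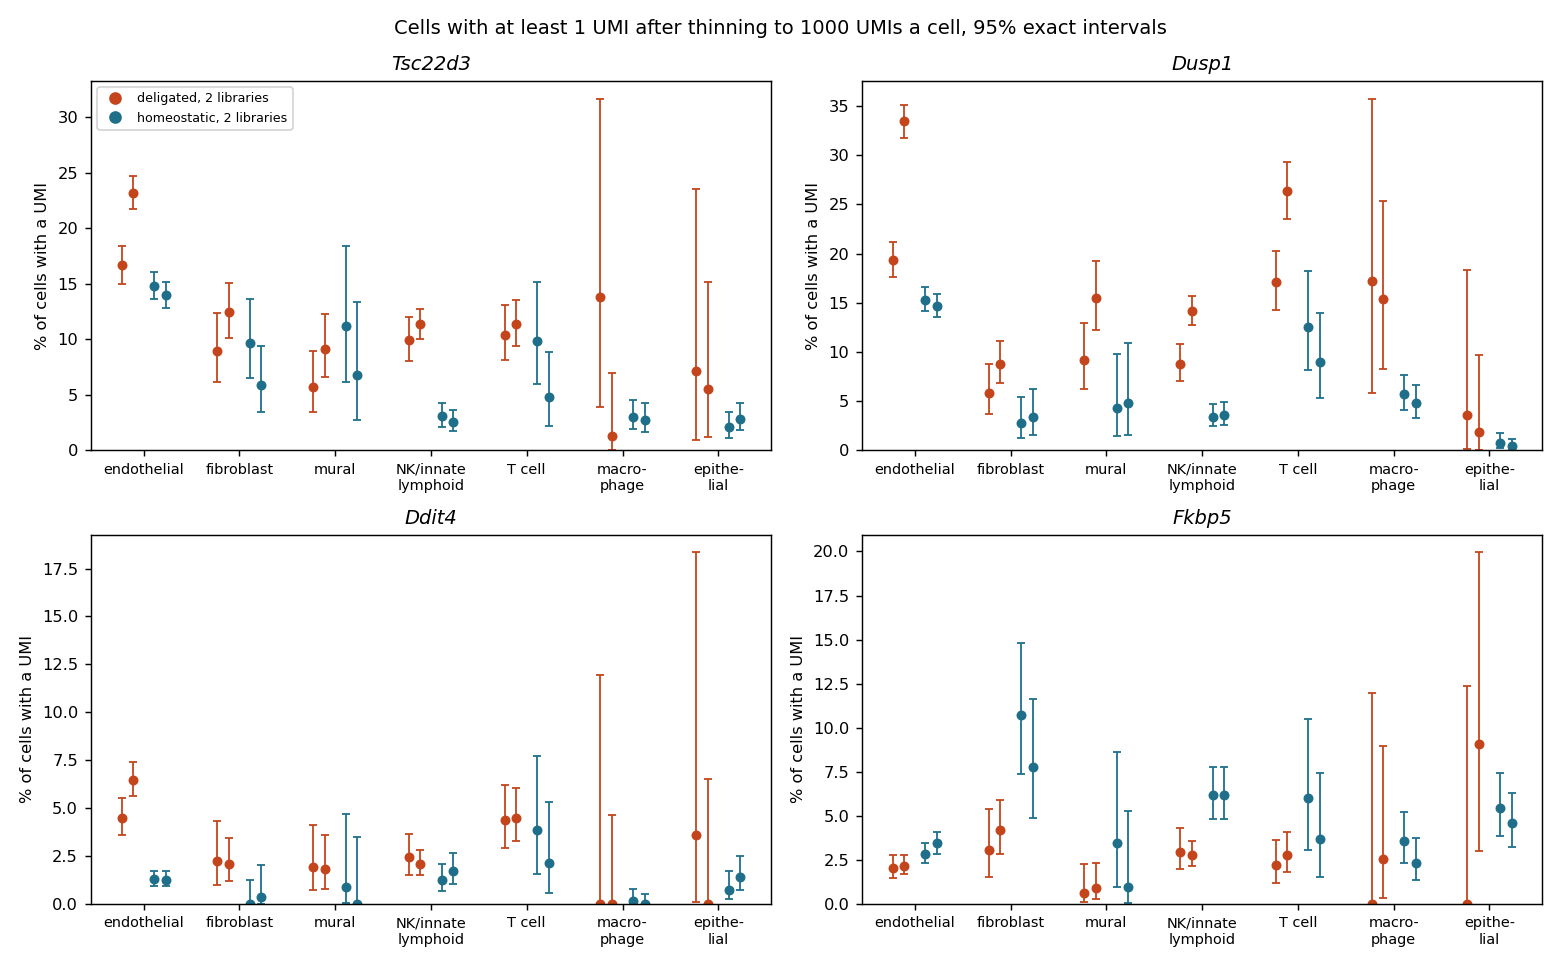
Percent of cells with at least 1 UMI of Tsc22d3, Dusp1, Ddit4 and Fkbp5 after thinning to 1000 UMIs a cell, by class and library, with 95% exact binomial intervals. The second deligated library is the highest for Dusp1 in endothelial-like cells, at 33.5%, and the homeostatic libraries are the highest for Fkbp5 in fibroblast-like cells.

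Across 10 classes the members had different orders of level within a group. Nr3c1 was highest in fibroblast-like cells, then endothelial-like and then erythroid-like cells in both groups, each step without overlap of libraries. It was lowest in epithelial-like cells (27.3 to 27.8) of homeostatic libraries. Erythroid-like cells also had 388, 279, 267 and 174 CPM of Sgk1, above fibroblast-like and below endothelial-like cells. Their Abcb1a was at 63.3, 72.3, 38.1 and 53.8, against 136, 110, 89.7 and 87.7 in endothelial-like cells and lower levels in every other class. The part of RNA from other cells in the Nr3c1 and Tsc22d3 ranks of erythroid-like cells was not tested. In deligated libraries the lowest Nr3c1 levels, of NK/innate lymphoid-like (65.4 to 72.1) and epithelial-like cells (45.7 to 91.9), overlapped. Tsc22d3 was highest in endothelial-like cells of homeostatic libraries, above erythroid-like cells (127 to 140) without overlap. Its lowest homeostatic levels, of NK/innate lymphoid-like (21.7 to 24.3) and epithelial-like cells (22.2 to 28.6), overlapped. In deligated libraries B cell-like cells (229 to 372, from 77 and 31 cells) overlapped with endothelial-like cells at the top. Homeostatic Fkbp5 went from fibroblast-like to NK/innate lymphoid-like to T cell-like to epithelial-like cells (48.0 to 48.8) without overlap at each step. Homeostatic Zbtb16 was highest in fibroblast-like cells, followed by mural-like, B cell-like (30.1 to 42.8), macrophage-like (34.8 to 35.8) and T cell-like cells, and among these neighbours fibroblast-like lay apart from mural-like cells and macrophage-like from T cell-like cells. Ddit4 was low in macrophage-like cells, at 0 to 5.64 in deligated libraries, from 1 and 0 UMIs, and at 2.80 to 3.13 in homeostatic libraries, where it overlapped with fibroblast-like cells (3.105 to 8.13).

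Within classes some clusters differed several-fold, and their levels are given as description. Deligated T cell-like cells fell into a cluster led by Cd8b1, Cd8a and Ly6c2 (450 and 741 cells) and one led by Cd163l1, Il17a and Il1rl1 (195 and 193 cells). Areg and Trdv4 were also among the leading genes of the second. The second had 54.4 and 21.1 CPM of Zbtb16 against 4.51 and 3.25 in the first, 46.7 and 41.2 against 18.5 and 21.5 of Fkbp5 and 493 and 592 against 190 and 327 of Dusp1. At Leiden resolution 2 a T cell-like cluster led by Cd163l1, Il17a and Blk held 146 and 60 deligated cells. An unnamed cluster led by Il1rl1, Areg and Stab2 held 46 and 130. The part of this make-up in the Zbtb16 levels of the deligated libraries was not tested. Homeostatic T cell-like cells formed a single cluster led by Themis, Il1rl1 and Stab2. The T cell-like cells of the groups thus came from different clusters, and the part of this in the group difference was not tested. In T cell-like cells the summed level of the 10 NK markers was also higher, at 1762 and 4376 in deligated and 739 and 657 in homeostatic libraries, with 9 of 10 markers higher without overlap and none at 0.

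Endothelial-like clusters differed in Ddit4 and Fkbp5. A deligated cluster led by Edn1, Stmn2 and Cldn5, with Gja5 and Sema3g among its leading genes, had 95.4 and 112 CPM of Ddit4. The largest deligated cluster, led by Rbp7, Rgcc and Gpihbp1, had 42.0 and 67.0. The homeostatic cluster with Gja5 and Sema3g had 35.9 and 26.1 against 13.2 and 12.7 in the largest homeostatic cluster, led by Car4 and Rsad2, so the same 2 leading genes went with the higher Ddit4 level in both groups. Fkbp5 was highest in the clusters led by Vwf and Selp, at 30.4 and 39.3 in deligated and 67.2 and 57.8 in homeostatic libraries, and lowest in those with Gja5, at 13.1 and 6.38 against 8.97 and 17.6. Deligated NK/innate lymphoid-like cells had 47.7 and 42.7 CPM of Ddit4 in a cluster with Eomes among its leading genes and 20.99 and 22.4 in a cluster with Gzmc and Gzmb. Tsc22d3 was at 88.0 and 106 in the first and 90.9 and 102 in the second, each above the 23.8 and 21.7 of the main homeostatic cluster, led by Klra4 and Styk1. Homeostatic macrophage-like cells had 1.26 and 1.27 CPM of Zbtb16, from 1 UMI each, in a cluster led by Wfdc17 and Aif1 and 47.2 and 47.5 in one led by Nlrp1b and Fat3.

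The rest of the pathway was read from lists of 61 genes in all, chosen like the members with earlier results known and tested in the same fit. The list of hormone supply and receptor machinery holds enzymes that make or break down active hormone (Hsd11b1, Hsd11b2), the mineralocorticoid receptor Nr3c2, chaperones and coregulators. Of it 3 genes fell in every class, of 14 tested (12 in mural-like cells): Nr3c2 and the coactivators Ncoa1 and Ncoa2, and in NK/innate lymphoid-like cells Abcb1a fell as well. Among all genes 26.4% were called lower in NK/innate lymphoid-like, 22.4% in endothelial-like, 18.5% in fibroblast-like, 16.4% in T cell-like and 6.66% in mural-like cells, so outside mural-like cells the share of the list was near the background. After trend removal 2 list genes were called higher and 3 lower in NK/innate lymphoid-like, fibroblast-like and T cell-like, 4 and 4 in endothelial-like and 1 and 1 in mural-like cells, beside 12.5% and 16.5%, 8.11% and 9.42%, 5.36% and 7.21%, 11.9% and 17.3%, and 1.27% and 2.62% of all genes in that order. Nr3c2, Ncoa1 and Ncoa2 have long introns (339, 221 and 219 kb). Endothelial-like cells had 12.2, 11.6, 97.6 and 94.4 CPM of Nr3c2 (adjusted p 1.7e-05 by edgeR, log2 fold change -2.999, SE 0.10), and with the trend removed it was -1.90. It was at 9.60, 8.66, 81.2 and 86.7 in fibroblast-like cells (adjusted p 2.7e-06 by edgeR, log2 fold change -3.15, SE 0.18; -1.71 with the trend removed). Both deligated libraries lay far below in each class. Ncoa1 in NK/innate lymphoid-like cells changed by -2.15 (SE 0.10, edgeR adjusted p 1.58e-05) and in T cell-like cells by -2.52 (SE 0.17, edgeR adjusted p 3.78e-05), and trend removal took these to -0.74 and -1.09. Ncoa2 changed by -1.85 (SE 0.14, edgeR adjusted p 1.18e-05) in fibroblast-like and -1.28 (SE 0.21, edgeR adjusted p 0.00331) in mural-like cells, where trend removal left -0.71 and -0.48, the latter without a call. The mural-like value was also not called without the first homeostatic library (-1.15).

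Hsd11b1, the enzyme that regenerates active glucocorticoid inside cells, was highest in fibroblast-like cells among the tested classes. Fibroblast-like cells had 339, 505, 362 and 384 CPM, where the homeostatic libraries lay between the deligated ones (adjusted p 0.325 by edgeR, log2 fold change 0.23, SE 0.17). NK/innate lymphoid-like cells had 123, 90.4, 143 and 142, lower without overlap and not called (adjusted p 0.148 by edgeR, log2 fold change -0.32, SE 0.16). It was called with scaling from genes of at most 2 kb of intron (-0.63) and without the first deligated library (-0.58), and was -0.06 without the second. In T cell-like cells the groups overlapped, at 123, 88.8, 123 and 116. Endothelial-like cells had only 16, 51, 6 and 6 UMIs (adjusted p 0.0245 by edgeR, log2 fold change 2.29, SE 0.57). Without the second deligated library the endothelial-like value was 1.46 and not called, and it was also not called without either homeostatic library (2.26 and 2.30) or with doublets retained (1.68). The summed level of the 9 fibroblast markers in endothelial-like cells was likewise higher, at 39.8 and 119 against 11.2 and 11.1 CPM, with 7 of 9 markers higher without overlap and none at 0, and its part in the Hsd11b1 value was not tested. Among the machinery genes called higher were Hsd11b1 and Abcb1a in endothelial-like and Fkbp4 in NK/innate lymphoid-like cells.

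Targets that glucocorticoids are known to induce did not move in 1 direction. Of this list 11 rose and 8 fell among 26 tested in endothelial-like, 10 and 3 among 28 in fibroblast-like, 8 and 6 among 25 in NK/innate lymphoid-like, 3 and 5 among 25 in T cell-like and 4 and 2 among 24 in mural-like cells. The median log2 fold change of the list was 0.31, 0.28, 0.28, 0.23 and 0.40 in the same order, and 0.14, 0.08, 0.09, -0.08 and 0.24 with the trend removed, beside medians of all tested genes between -0.0009 and 0.04 as fitted. With the trend removed 7 were called higher and 7 lower in endothelial-like, 5 and 1 in fibroblast-like, 5 and 5 in NK/innate lymphoid-like, 3 and 3 in T cell-like and 0 and 0 in mural-like cells. The shares of all genes called, as fitted and with the trend removed, are those given above for the members.

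Per1, a clock gene with a strong receptor response, fell in 3 classes and has 9.11 kb of intron. Its level in endothelial-like cells was 17.1, 15.9, 31.9 and 28.2 CPM (adjusted p 0.00251 by edgeR, log2 fold change -0.85, SE 0.11). NK/innate lymphoid-like cells had 18.9, 26.9, 48.5 and 49.0 (adjusted p 0.00265 by edgeR, log2 fold change -0.96, SE 0.15) and T cell-like cells 19.4, 25.0, 54.4 and 64.9 (adjusted p 0.00374 by edgeR, log2 fold change -1.29, SE 0.22). The groups were apart in all 3, and trend removal made the values -0.97, -1.16 and -1.54. Without the second homeostatic library the T cell-like value was -1.14 and not called. Fibroblast-like and mural-like cells had log2 fold changes of -0.50 (edgeR adjusted p 0.2195) and -0.29 (edgeR adjusted p 0.77). Of the clock list 9 genes were called higher and 3 lower of 14 tested in endothelial-like (all genes 13.0% and 22.4%), 3 and 3 of 12 in NK/innate lymphoid-like (15.6% and 26.4%), 6 and 4 of 12 in fibroblast-like (8.99% and 18.5%), 3 and 2 of 11 in mural-like (1.39% and 6.66%) and 0 and 3 of 11 in T cell-like cells (7.5% and 16.4%). After trend removal these counts were 9 and 1, 3 and 2, 5 and 2, 3 and 1, and 0 and 1 in that order, beside 11.9% and 17.3%, 12.5% and 16.5%, 8.11% and 9.42%, 1.27% and 2.62%, and 5.36% and 7.21% of all genes. Arntl, an activator of the clock, fell in all 5 classes, and its repressor Nr1d1 rose in all but T cell-like cells; both were singled out after their values were seen. The hour of harvest is not given in the sources used here.

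Sgk1, a kinase that controls ion transport, and Klf9, a transcription factor, are direct receptor targets, and both rose in endothelial-like and fibroblast-like cells. The Sgk1 level was 577, 480, 345 and 328 CPM for endothelial-like cells (adjusted p 0.0101 by edgeR, log2 fold change 0.67, SE 0.13) and at 53.8, 63.4, 36.2 and 32.5 in fibroblast-like cells (adjusted p 0.00424 by edgeR, log2 fold change 0.83, SE 0.16). Its 113 kb of intron place it among the genes that were lower as a rule, and trend removal gave 1.17 and 1.52. Klf9 rose by 0.42 (SE 0.08, edgeR adjusted p 0.0104) in endothelial-like, 0.45 (SE 0.12, edgeR adjusted p 0.0197) in fibroblast-like and 0.61 (SE 0.14, edgeR adjusted p 0.0214) in mural-like cells. Without either homeostatic library these Sgk1 values (0.65 to 0.89) and Klf9 values (0.42 to 0.64) were no longer called, with the size little changed, and the mural-like Klf9 value was not called with the trend removed (0.53). In NK/innate lymphoid-like and T cell-like cells the log2 fold changes were 0.10 and 0.33 for Sgk1 and 0.21 and 0.60 for Klf9, without a call. With the trend removed Sgk1 was called in both, at 1.01 and 1.23. In mural-like cells Sgk1 was lower without overlap, at 9.08 and 13.01 against 15.01 and 14.6 CPM from 9 to 32 UMIs, and not called (adjusted p 0.609 by edgeR, log2 fold change -0.43, SE 0.41; 0.03 with the trend removed).

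Mt1 and Mt2, metallothioneins induced by glucocorticoids and metals, went opposite ways in different classes. The Mt1 level was 652, 724, 457 and 435 CPM for fibroblast-like cells (adjusted p 0.00198 by edgeR, log2 fold change 0.69, SE 0.12) and at 157, 185, 102 and 111 in mural-like cells (adjusted p 0.0341 by edgeR, log2 fold change 0.68, SE 0.17). It fell in endothelial-like cells, with 9.13, 11.4, 32.6 and 39.2 (adjusted p 0.000333 by edgeR, log2 fold change -1.78, SE 0.14), and in NK/innate lymphoid-like cells, with 7.24, 9.74, 36.4 and 29.9 (adjusted p 0.000277 by edgeR, log2 fold change -1.83, SE 0.17). The T cell-like level was 3.04, 6.54, 42.3 and 39.6 (adjusted p 0.000748 by edgeR, log2 fold change -2.91, SE 0.36). Mt2 rose by 0.71 (SE 0.13, edgeR adjusted p 0.00255) in fibroblast-like cells. It fell in endothelial-like (-1.64, SE 0.30, edgeR adjusted p 0.0076) and NK/innate lymphoid-like cells (-2.23, SE 0.51, edgeR adjusted p 0.013; -4.13 without the second deligated library, on 2 UMIs).

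The falls of Mt1 were called with the trend removed (-2.07, -2.28 and -3.34), and the rises were not (fibroblast-like 0.28, mural-like 0.40). Without either homeostatic library the rises were not called either, at a like size (0.65 to 0.71 and 0.59 to 0.77). The Mt2 rise was not called with the trend removed (0.35) or without either homeostatic library (0.71 and 0.69). Epithelial-like cells had 845 to 2728 CPM of Mt1, and the summed epithelial markers are given here for each class. The summed level of 12 epithelial markers in endothelial-like cells was 3.27 and 5.81 after deligation and 43.5 and 65.9 at homeostasis, with 10 of 12 markers lower without overlap and none at 0. In NK/innate lymphoid-like cells the sums were 123 and 173 against 227 and 238, with 7 markers lower, 1 higher and none at 0. In T cell-like cells they overlapped, at 45.9 and 125 against 97.7 and 122, with 5 lower and Cldn4 at 0. Where Mt1 rose, they were 5.84 and 7.61 against 48.1 and 50.4 for fibroblast-like cells (7 lower, 1 higher, Krt5 at 0) and 1.30 and 10.6 against 35.0 and 55.3 for mural-like cells (5 lower, with Krt19, Krt5 and Cldn4 at 0). In mural-like cells the 9 fibroblast markers summed to 1014 and 960 CPM in deligated and 460 and 412 in homeostatic libraries, with 8 higher without overlap and Dpp4 at 0. The part of RNA from other cells in the Mt1 and Mt2 values was not tested.

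Among the other induced targets, the AU-rich mRNA decay factor Zfp36, the G protein regulator Rgs2 and the chemokine receptor Cxcr4 rose where called. Zfp36 in mural-like cells was at 81.25, 180.5, 45.0 and 45.6 CPM (adjusted p 0.0217 by edgeR, log2 fold change 1.51, SE 0.35). This value was 0.89 without the second deligated library and was not called without either homeostatic library (1.47 and 1.55) or with the trend removed (1.23). Rgs2 in NK/innate lymphoid-like cells was at 373, 441, 148 and 161 (adjusted p 6.29e-05 by edgeR, log2 fold change 1.498, SE 0.10). Cxcr4 was at 15.2, 16.1, 5.04 and 3.96 there (adjusted p 0.000347 by edgeR, log2 fold change 1.90, SE 0.19) and at 28.8, 35.7, 7.05 and 10.1 in T cell-like cells (adjusted p 0.00242 by edgeR, log2 fold change 2.03, SE 0.32). With thinned sums both homeostatic T cell-like libraries had 0 Cxcr4 UMIs, so that fold is not given. The deligated libraries were above both homeostatic ones in each case. Txnip, an inhibitor of thioredoxin, rose by 0.69 (SE 0.15, edgeR adjusted p 0.0156) in mural-like cells, without a call when either homeostatic library was left out (0.65 and 0.74) or the trend was removed (0.51).

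Nfkbia, which encodes the NF-kappaB inhibitor and is induced by NF-kappaB as well as by glucocorticoids, rose slightly in 3 classes. The log2 fold changes were 0.35 (SE 0.09, edgeR adjusted p 0.0234) in endothelial-like, 0.28 (SE 0.09, edgeR adjusted p 0.0388) in NK/innate lymphoid-like and 0.40 (SE 0.12, edgeR adjusted p 0.0481) in T cell-like cells. None was called with the trend removed (0.15, -0.02 and 0.04) or without either homeostatic library (0.29 to 0.44). With the replicate number as a block the endothelial-like (0.34) and NK/innate lymphoid-like (0.28) values were not called. Il7r, the interleukin 7 receptor, had 16 and 34 deligated and 0 and 0 homeostatic UMIs in fibroblast-like cells (edgeR adjusted p 0.00474), and a count of 0 allows up to 3 UMIs per library. Il7r stood at 509 and 373 CPM in deligated T cell-like cells. The 10 T cell markers in fibroblast-like cells summed to 12.3 and 51.5 in deligated and 1.55 and 0 in homeostatic libraries, with 9 higher without overlap and Cd4 at 0, and their part was not tested.

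Relatives of Dusp1 divided. Dusp2 and Dusp5, inducible phosphatases of lymphocytes, rose: Dusp5 in NK/innate lymphoid-like cells was at 121, 131.5, 45.4 and 45.6 CPM (adjusted p 2.66e-05 by edgeR, log2 fold change 1.58, SE 0.08) and Dusp2 in T cell-like cells at 376, 539, 118 and 97.4 (adjusted p 0.000112 by edgeR, log2 fold change 2.21, SE 0.19). Dusp10 and Dusp16, phosphatases of the stress kinases with 59.3 and 69.4 kb of intron, fell. Dusp16 in mural-like cells was at 10.8, 8.94, 28.4 and 37.4 (adjusted p 0.0102 by edgeR, log2 fold change -1.74, SE 0.35) and was not called without the second homeostatic library (-1.49). Dusp10 in fibroblast-like cells had 4 and 8 against 7 and 12 UMIs in far smaller homeostatic totals (adjusted p 0.0177 by edgeR, log2 fold change -2.19, SE 0.57), and it was not called without either homeostatic library (-2.59 and -1.73). The list of relatives of all members, which also holds Tsc22d and Zbtb genes, Ddit4l and Fkbp4, counted 6 higher and 3 lower of 11 in NK/innate lymphoid-like, 4 and 1 of 12 in T cell-like, 4 and 4 of 12 in endothelial-like, 3 and 4 of 12 in fibroblast-like and 1 and 2 of 13 in mural-like cells. All genes called higher and lower made up 15.6% and 26.4%, 7.5% and 16.4%, 13.0% and 22.4%, 8.99% and 18.5%, and 1.39% and 6.66% in that order. The list counts after trend removal were 4 and 2, 2 and 0, 6 and 3, 4 and 3, and 1 and 1, beside 12.5% and 16.5%, 5.36% and 7.21%, 11.9% and 17.3%, 8.11% and 9.42%, and 1.27% and 2.62%.

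Dusp2 was also called in vessel and connective tissue cells, at low levels. Its endothelial-like level was 8.92, 23.8, 3.16 and 3.83 CPM (adjusted p 0.0114 by edgeR, log2 fold change 2.24, SE 0.45; 1.43 without the second deligated library). Fibroblast-like cells had 15, 126, 1 and 0 UMIs (edgeR adjusted p 0.0165, without a call when either homeostatic library was left out or doublets were retained) and mural-like cells 29, 43, 0 and 2 (edgeR adjusted p 0.0321, without a call when the first homeostatic library was left out or the trend removed). No fold is given for these counts near 0. The summed level of the 10 NK markers was 28.6 and 125 against 14.7 and 7.51 in endothelial-like, 13.6 and 192 against 9.83 and 6.50 in fibroblast-like and 8.64 and 136 against 6.67 and 3.25 in mural-like cells. Markers higher without overlap numbered 8, 4 and 4 of 10, with none at 0 in all libraries. The second deligated library was the highest each time, for Dusp2 as for these markers, and their part in the Dusp2 values was not tested.

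Inflammatory genes that glucocorticoids are known to repress were mostly too low to test, with 1 to 10 of 16 tested in a class. Of these 3 rose and 0 fell in endothelial-like (Cxcl1, Nos2 and Ccl5), fibroblast-like (Ccl2, Icam1 and Ccl5) and T cell-like cells (Icam1, Ccl5 and Ifng), of 10, 8 and 7 tested. In NK/innate lymphoid-like cells 3 rose (Icam1, Ccl5 and Cxcl10) and Tnf fell, of 6 tested. Among all genes 13.0%, 8.99%, 7.5% and 15.6% were called higher and 22.4%, 18.5%, 16.4% and 26.4% lower in endothelial-like, fibroblast-like, T cell-like and NK/innate lymphoid-like cells. With the trend removed the counts higher and lower were 3 and 1, 2 and 0, 1 and 1, and 1 and 1 in the same order, beside 11.9% and 17.3%, 8.11% and 9.42%, 5.36% and 7.21%, and 12.5% and 16.5% of all genes. Ccl5, a chemokine of cytotoxic lymphocytes, was at 4440, 5261, 1797 and 1790 CPM in T cell-like cells (adjusted p 3.2e-05 by edgeR, log2 fold change 1.56, SE 0.10). It was at 26.5, 98.9, 10.97 and 7.37 in endothelial-like (adjusted p 0.0141 by edgeR, log2 fold change 2.77, SE 0.59) and 27.5, 187, 6.73 and 4.34 in fibroblast-like cells (adjusted p 0.00695 by edgeR, log2 fold change 4.32, SE 0.92). Without the second deligated library these 2 values were 1.61 and 2.42, and the fibroblast-like one was 2.00 with doublets retained and was not called without either homeostatic library (4.65 and 4.04). Deligated NK/innate lymphoid-like cells had 5717 and 6980 CPM of Ccl5, and the NK marker sums above moved the same way. The part of RNA from other cells in the Ccl5 values was not tested.

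**Figure D5:**
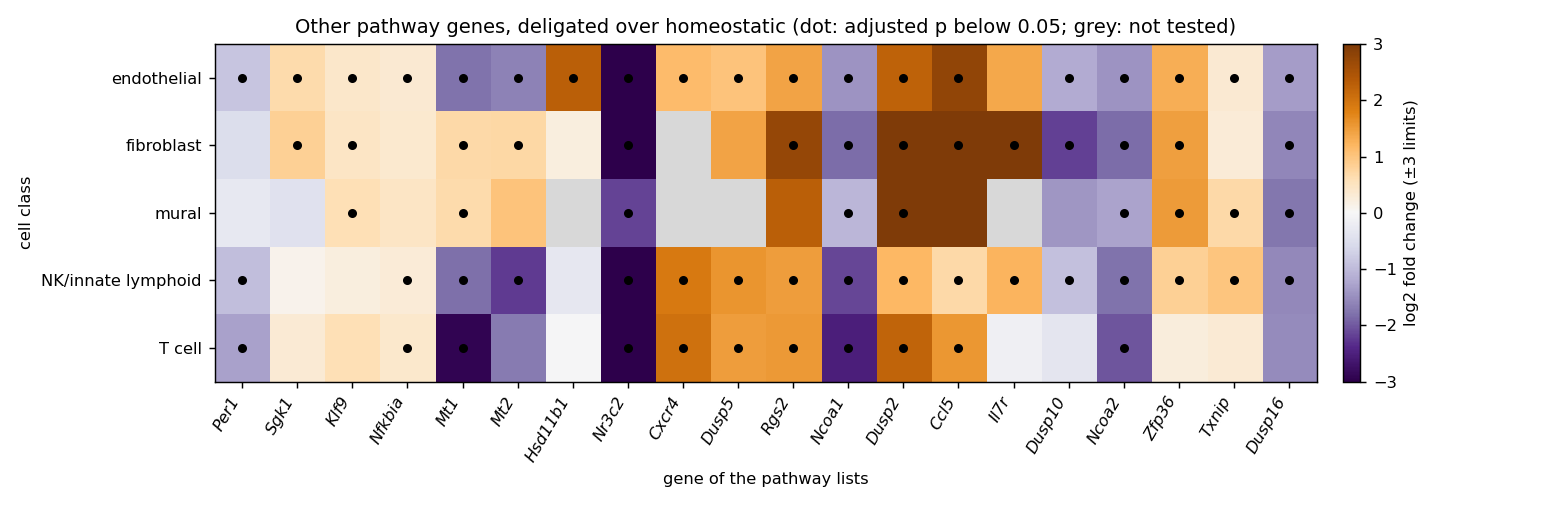
Log2 fold change (colour, limited to 3 in each direction) of named genes of the pathway lists in 5 classes, with a dot where the edgeR adjusted p is below 0.05 and grey where a gene was not tested. Nr3c2, Ncoa1 and Ncoa2 are lower in all 5 classes, and Mt1 is lower in endothelial-like and lymphoid and higher in fibroblast-like and mural-like cells.

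Genes of the immediate early response and of tissue dissociation, which digestion of a gland is known to induce, were called higher more often than lower in all 5 classes as fitted, and Dusp1 is itself an immediate early gene. Of 19 tested genes 15 were higher and 0 lower in endothelial-like, 14 and 1 in NK/innate lymphoid-like, 9 and 0 in T cell-like and 8 and 1 in fibroblast-like cells, and of 18 in mural-like cells 7 and 0. The shares of all genes called higher were 13.0%, 15.6%, 7.5%, 8.99% and 1.39% in that order. Once the trend was removed the counts were 10 and 0, 7 and 2, 0 and 0, 7 and 1, and 4 and 0, and the shares of all genes called higher 11.9%, 12.5%, 5.36%, 8.11% and 1.27%. The part of the dissociation response in the members' values was not tested.

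Likeness over cell types was measured as Pearson's r of log2(CPM + 1) over 36 sums of at least 30 cells from 10 classes, after each group's mean was subtracted. The sums share 4 libraries, and r is given as description. Tsc22d3 was most like Klf2 (0.85), Sh2b3 (0.79) and Zbtb46 (0.79), and Dusp1 most like 9930111J21Rik2 (0.86), Ier5 (0.84) and Ccrl2 (0.83), with r of 0.70 between the pair. Fkbp5 was most like Gtf2h4 (0.74), Vcpkmt (0.72) and Lrrk1 (0.70), and Zbtb16 most like Fam69a (0.82), Gm14005 (0.78) and Il6ra (0.77). Ddit4 was most like Pik3ip1 (0.82), Crem (0.79) and Nr4a2 (0.78), and Nr3c1 most like Man2a1 (0.90), Eva1b (0.89) and Rtn3 (0.86). The r of Fkbp5 with the other 5 members lay between -0.15 and 0.19. In thinned endothelial-like cells 79, 241, 78 and 78 cells held both Tsc22d3 and Dusp1, which is 1.31, 1.01, 1.01 and 1.12 times the product of their shares. In the other classes this ratio was read only where the product reached 5 cells. It was 1.39 and 1.15 in deligated NK/innate lymphoid-like and 0.61 and 1.15 in deligated T cell-like cells. In deligated 2 it was 0.64 in both fibroblast-like and mural-like cells.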

How the data were processed

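Counts of unique molecular identifiers (UMIs) per gene and cell were deposited by the authors as 4 matrices. Per the file headers they were made with Cell Ranger 6.0.1 (deligated) and 7.0.0 (homeostatic), while the submitters' processing notes name Cell Ranger 6.0.1, Seurat and mm10. Whether intron reads and strand were used is not given in the sources used here.

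Barcodes with at least 300 genes and at most 10% mitochondrial UMIs were kept. The cells with the highest doublet scores, 0.8% per 1000 cells, were removed. Cells were clustered in scanpy 1.11.5 (3000 variable genes, 30 components, 20 neighbours, Leiden resolution 1) without 113 member and list genes. A cluster took a class name from at least 3 markers detected in 10% or more of its cells and 2-fold enriched over other cells of the same libraries, and stayed unnamed where another class had as many markers or led its top genes; details of this rule were set with the clusters in view. Sums of counts for each class in each library were fitted with edgeR 4.0.16 (TMM, filterByExpr, quasi-likelihood test, Benjamini-Hochberg) over all genes, with group as the only term. Intron lengths came from GENCODE on GRCm38, matched by identifier for 31011 of 31053 genes (99.9%). On simulated counts with a log2 fold of 1.5, 92.8% of changed genes were recovered at the size of endothelial-like, 90.3% of NK/innate lymphoid-like, 89.0% of fibroblast-like, 79.9% of mural-like and 73.2% of T cell-like sums.

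Members and lists were chosen with earlier results of these data known. Named list genes are, in each class, up to 3 per direction with the largest log2 fold change among those called and without overlap of libraries, and 8 fixed genes (Per1, Sgk1, Klf9, Nfkbia, Mt1, Mt2, Hsd11b1 and Nr3c2). Alternatives were DESeq2 1.42.0, other scaling, no low-count filter, a replicate block, trend removal, stricter cells, thinning, Leiden resolution 2, doublets retained and leaving out each library.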

Additional observations from a re-analysis of the deposited data

Results flagged for a closer look

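Mt1, Mt2 and the hormone exporter gene Abcb1a were called in opposite directions in different classes, with the libraries of the groups apart each time. Mt1 had log2 fold changes of 0.69 (fibroblast-like) and 0.68 (mural-like) against -1.78 (endothelial-like), -1.83 (NK/innate lymphoid-like) and -2.91 (T cell-like). Mt2 had 0.71 in fibroblast-like cells against -1.64 in endothelial-like and -2.23 in NK/innate lymphoid-like cells. Abcb1a had 0.49 in endothelial-like cells, with 136, 110, 89.7 and 87.7 CPM, against -0.67 in NK/innate lymphoid-like cells, with 14.1, 11.2, 20.1 and 22.4. The difference between classes was not tested for any of the 3 genes.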

How the results depend on the processing

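Class order here is NK/innate lymphoid-like, T cell-like, endothelial-like, fibroblast-like, mural-like. Of the 6 members 6, 5, 4, 5 and 3 were called as fitted. With the intron-length trend removed the first class had 2, the second 2 and the last 1. Thinned sums gave 2 for T cell-like, 3 for fibroblast-like and 1 for mural-like cells, where DESeq2 and the stricter cell filter also gave 1. Leaving out each library gave 5 to 6, 4 to 6, 2 to 5, 4 to 6 and 0 to 3, a lone library being assumed to vary like the other group. The lowest counts came without a homeostatic library: 2 without either in endothelial-like cells, and 1 without the first and 0 without the second in mural-like cells. Of the pathway lists 23, 14, 28, 19 and 9 genes were called as fitted. T cell-like cells had 22 without the low-count filter and 7 with thinned sums, fibroblast-like cells 8 with thinned sums, and mural-like cells 2 with the trend removed and 3 with thinned sums. Leaving out each library gave 19 to 27, 9 to 23, 12 to 39, 8 to 31 and 3 to 14.

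Among called members 1 sign turned: Nr3c1 in NK/innate lymphoid-like cells was 0.24 with the trend removed. For list genes, scaling from genes with at most 2 kb of intron turned Sgk1 (-0.20), Klf9 (-0.095) and Nfkbia (-0.023) in NK/innate lymphoid-like, Sgk1 (-0.040) in T cell-like and Hsd11b1 (-0.10) in fibroblast-like cells. Trend removal turned Nfkbia (-0.022) in NK/innate lymphoid-like, Hsd11b1 (0.17) in T cell-like and Sgk1 (0.032) in mural-like cells. Retained doublets turned Sgk1 (-1.38) and Klf9 (-0.37) in NK/innate lymphoid-like and Sgk1 (0.45) in mural-like cells. Thinned sums turned Sgk1 (-0.0027) and Hsd11b1 (0.0024) in T cell-like and Nfkbia (-0.080) in fibroblast-like cells. Hsd11b1 in T cell-like cells also turned without the low-count filter (0.047) and at Leiden resolution 2 (0.13). Leaving out each library gave -0.19 to 0.40 for Sgk1 in NK/innate lymphoid-like cells, -0.30 to 0.20 for Hsd11b1 in T cell-like cells, -0.014 to 0.46 for Hsd11b1 in fibroblast-like cells and -0.77 to 0.42 for Per1 in mural-like cells. Apart from Nfkbia in NK/innate lymphoid-like cells, these list genes were not called there as fitted. The cause was not tested.

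Calls were also lost as follows. Scaling from genes with at most 2 kb of intron ended those of Klf9 (endothelial-like 0.22, fibroblast-like 0.12, mural-like 0.45), Mt1 (fibroblast-like 0.36, mural-like 0.51), Mt2 (fibroblast-like 0.38) and Nfkbia (endothelial-like 0.14, T cell-like 0.03), and it took Tsc22d3 in fibroblast-like cells to 0.24 and Ddit4 in NK/innate lymphoid-like cells to 0.40. Thinned sums ended those of Sgk1 (0.47), Klf9 (0.46), Mt1 (0.45) and Mt2 (0.30) in fibroblast-like, Mt1 (0.77), Zfp36 (1.37) and Txnip (0.66) in mural-like and Per1 (-1.12) in T cell-like cells. Member log2 fold changes were also compared with the larger SD of log2(CPM + 1) within a group. With scaling from short introns 16 shifted by more than this and 14 did not. These counts were 7 and 23 with doublets retained and 7 and 17 with thinned sums.

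The replicate numbers are not said to pair libraries. Deviations of same-numbered libraries correlated at -0.34 to 0.02 over genes, and with the number as a replicate block 6, 6, 4, 5 and 3 members and 22, 18, 28, 24 and 10 list genes were called. In the 5 tested classes the lowest count of a member was 3 UMIs, and in smaller classes and clusters some levels rest on 0 to 2 UMIs.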
